A study of Homo sapiens with 6 samples.

Results

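The 10 genes described here encode repressors and output factors of the circadian clock: the period genes PER1, PER2 and PER3, the cryptochrome genes CRY1 and CRY2, the REV-ERB receptor genes NR1D1 and NR1D2, the PAR bZIP factor genes DBP and TEF, and BHLHE40 (DEC1). Their probe sets were those of an Affymetrix PrimeView array whose platform annotation gives one of these symbols and no other, which holds for 23 of the 44988 probe sets with a single symbol. The 23 probe sets represent 9 of the 18132 genes measured in this way. NR1D1 is annotated on 1 probe set that also names its overlapping neighbour THRA, so it has no value here.

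The arrays compare cells infected with a lentivirus that expresses an shRNA against SHCBP1 (3 arrays, called the knockdown arrays) with cells infected with a lentivirus that expresses a control shRNA (3 arrays, the control arrays). SHCBP1 encodes a binding partner of the adaptor SHC1 that also acts in cytokinesis. Titles and characteristics give TPC-1, an established line from a papillary thyroid carcinoma, whereas the text on RNA extraction speaks of DLD1, a colorectal carcinoma line. The labels describe 1 hairpin construct per group, with no rescue, and do not say whether the independent samples were separate cultures, so the p-values reflect a spread between samples that may be technical only. The labels give neither the time of harvest nor any synchronisation of the cells. A change in the level of a rhythmic transcript and a change in its phase therefore cannot be told apart, nor can fewer cells with a transcript and less transcript per cell.

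In the clock, CLOCK and BMAL1 form a heterodimer that binds E-box sequences and activates the PER, CRY, NR1D, DBP, TEF and BHLHE40 genes. PER and CRY proteins then inhibit the heterodimer, which closes the main feedback loop. REV-ERB proteins repress BMAL1 through response elements shared with the activating ROR receptors, and DBP and TEF drive genes that carry D-boxes. Most peripheral tissues and many cultured lines run this loop, with amplitudes that differ between lines.

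The RefSeq promoter windows (build GRCh38.p14) are shown as a description of sequence, for members that moved and for members that did not. Any link between these letters and the changes was not tested. Windows ran from 250 bases before to 50 bases after each annotated transcript start, and all 10 members matched, with 14 windows. The motifs searched on both strands were the E-box CACGTG and the E'-box CACGTT, bound by CLOCK and BMAL1. The D-box was searched as TTATGTAA, TTATATAA, TTACGTAA or TTACATAA. The core of the element shared by REV-ERB and ROR receptors (RORE) was searched as TAGGTCA, and the cAMP response element as TGACGTCA. NR1D2 had the most matches. The 250 bases before its second start carried 2 E-boxes and a D-box, in capitals, on chr3:23945871-23946120, plus strand, downstream of the gene's first start.
NR1D2: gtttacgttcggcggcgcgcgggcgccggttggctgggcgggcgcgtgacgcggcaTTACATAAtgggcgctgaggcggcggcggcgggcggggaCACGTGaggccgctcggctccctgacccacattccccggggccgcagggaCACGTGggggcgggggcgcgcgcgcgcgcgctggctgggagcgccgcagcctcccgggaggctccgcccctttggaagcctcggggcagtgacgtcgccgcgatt
The 250 bases before the start of CRY1, the member with the largest rise, held 1 E'-box (chr12:107093550-107093799, minus strand).
CRY1: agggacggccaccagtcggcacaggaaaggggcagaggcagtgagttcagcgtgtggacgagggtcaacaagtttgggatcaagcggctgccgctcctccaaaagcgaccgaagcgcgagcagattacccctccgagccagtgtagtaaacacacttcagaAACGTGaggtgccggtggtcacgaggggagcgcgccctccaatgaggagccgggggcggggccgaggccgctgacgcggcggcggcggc

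Shorter stretches around the first match upstream of the start follow for other members, with the match in capitals. They lie on chr3:4979187-4979222, plus strand (BHLHE40), chr11:45847262-45847317, plus strand (CRY2, second start), chr17:8152547-8152602, minus strand (PER1), chr2:238288777-238288832, minus strand (PER2), chr1:7784089-7784146, plus strand (PER3, first start) and chr22:41367235-41367290, plus strand (TEF, first start).
BHLHE40: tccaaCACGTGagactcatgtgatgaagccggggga
CRY2: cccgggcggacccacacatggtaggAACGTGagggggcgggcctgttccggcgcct
PER1: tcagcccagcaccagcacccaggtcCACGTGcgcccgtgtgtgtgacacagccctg
PER2: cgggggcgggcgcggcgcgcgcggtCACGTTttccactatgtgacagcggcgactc
PER3: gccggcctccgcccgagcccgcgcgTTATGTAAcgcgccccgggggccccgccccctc
TEF: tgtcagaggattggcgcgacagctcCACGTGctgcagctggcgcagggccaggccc

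An E-box or E'-box stood in 9 of the 14 windows of the members, against 12.2% of all 35116 RefSeq windows of this length. The members are known as E-box genes, so this share is no test. Windows of the same gene were counted separately, and the 2 of PER3 overlap. Across all windows the E-box was present in 7.26%, the E'-box in 5.34%, the D-box in 1.43%, and the RORE core and the cAMP response element in 1.85% each. D-boxes lay in the windows of NR1D2, PER2 and PER3, and the RORE core in that of CRY2. No match to the 5 motifs was found in the window of DBP, the first windows of CRY2 and NR1D2 or the second of PER3. No window of the 14 held a cAMP response element. Matches were found both in members that changed (CRY1, CRY2, NR1D2, BHLHE40) and in members that did not pass the test (PER1, PER2, PER3, TEF). A match is a description of these letters and not of a bound site.

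**Figure D1:**
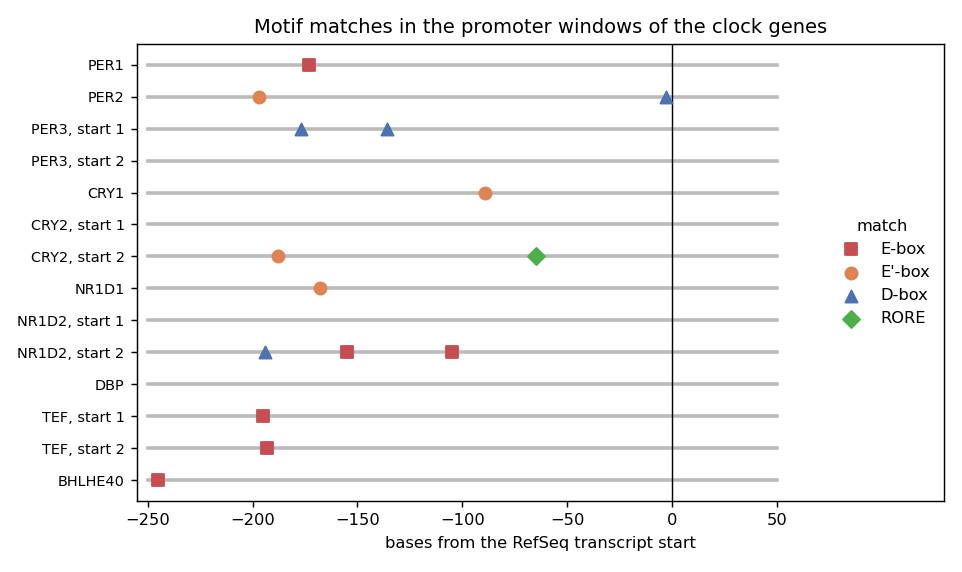
Positions of motif matches in the 14 RefSeq promoter windows of the 10 clock genes, in bases from the transcript start (0); each grey line is a window from 250 bases before to 50 bases after the start, and symbols mark the first base of a match. NR1D2 carries 3 matches before its second start. The window of DBP, the first windows of CRY2 and NR1D2 and the second of PER3 carry none.

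The deposited log2 values had a median of 0 over the 6 arrays for each probe set, so a gene's value told how an array stands against the others and held no expression level. SHCBP1, the targeted gene, was 2.91-fold lower in the knockdown arrays (log2 difference -1.54 ± 0.06, SE, 3 arrays per group), with control values from 0.71 to 0.76 and knockdown values from -0.95 to -0.72. Among the lines' markers, 1 of 6 tested thyroid genes (FOXE1, higher by 0.24) and 1 of 6 tested colorectal genes (CDX2, higher by 0.12) passed the test, where 41.0% of all genes did, and centred values cannot tell whether any of them is expressed. Poly-A spike-in control probe sets read 0.43 ± 0.04 (SE) higher in the knockdown arrays. Scaling to them moved the median difference of all genes from 0.02 to -0.41, so each change below is one relative to most other genes.

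The clock genes changed in both directions when SHCBP1 was knocked down. CRY1 and CRY2 rose, NR1D2, BHLHE40 and DBP fell, and PER1, PER2, PER3 and TEF stayed above the threshold of 0.05 for limma's adjusted p. That is 5 of 9 members past the threshold, where 41.0% of all genes passed (22.0% higher and 19.0% lower). The share is high across the whole array. With a difference of at least 0.5 on the log2 scale, 3 members (CRY1, NR1D2 and BHLHE40) passed, as did 8.21% of all genes. The members were chosen with earlier results of these data known, so neither the count nor the sizes test the set. The median difference over the 9 members was -0.06, beside 0.02 over all genes, and the median size was 0.24, beside 0.11. With spike-in scaling CRY1 was the 1 member higher and the other 8 were lower, all past the threshold.

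**Figure D2:**
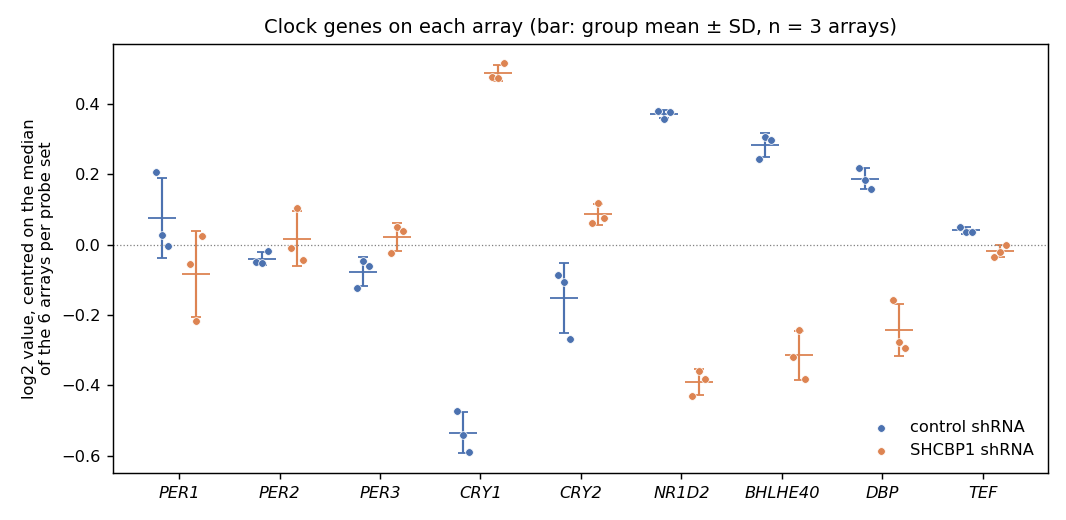
Centred log2 value of each clock gene (mean of its probe sets) on each of the 6 arrays; points are arrays, horizontal bars the group mean and whiskers its SD (n = 3). CRY1 and CRY2 sit higher in the knockdown (SHCBP1 shRNA) arrays, NR1D2, BHLHE40 and DBP sit lower, and the values of PER1 and PER2 overlap between the groups.

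Among the repressors of CLOCK and BMAL1, CRY1 showed the largest change of any member. The control arrays read -0.47, -0.54 and -0.59 and the knockdown arrays 0.48, 0.47 and 0.52. All 3 control arrays lay well below all 3 knockdown arrays, with little spread within either group. The 2.03-fold rise (log2 difference 1.02 ± 0.04, SE, 95% confidence interval 0.93 to 1.12) passed limma's test with Benjamini-Hochberg adjustment (adjusted p = 1.85e-06). In order of signed difference CRY1 stood at place 50 of the 18132 genes, counted from the largest rise. It rests on 1 probe set (11723709_a_at), a type whose probes match several transcripts of the same gene. The rise stayed past the threshold with spike-in scaling, at 0.59.

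CRY2, the paralog of CRY1, rose much less. Its control values were -0.09, -0.11 and -0.27, and its knockdown values 0.06, 0.12 and 0.08. The groups did not overlap, and the third control array stood lowest. The difference was 0.24 ± 0.05 (SE, 1.18-fold, 95% confidence interval 0.11 to 0.37), past limma's threshold (adjusted p = 0.00842). Its probe set 11719310_a_at rose by 0.28, and 11719311_a_at rose by 0.20 with an adjusted p from limma of 0.0487. The call of the latter was lost when any array other than control replicate 2 was left out, and also with quantile normalization, with array medians set to 0 and with robust moderation (limma's adjusted p of 0.0755, 0.0573 and 0.0526), whereas that of the gene was kept without each of the 6 arrays in turn (limma's adjusted p from 0.00997 to 0.0308). Spike-in scaling turned the direction of CRY2 to -0.19. The change of CRY1 exceeded that of CRY2 by 0.78 ± 0.04 (SE), and the difference CRY1 minus CRY2 separated the 2 groups completely (-0.39, -0.43 and -0.32 for control, 0.41, 0.35 and 0.44 for knockdown). An exact two-sided permutation test gave p = 0.1, the smallest p that 3 arrays against 3 allow, and 0.167 after adjustment over the 5 pairs of family members compared.

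The period genes, which encode the partners of the cryptochromes in the repressor complex, showed small and mixed differences. PER1 read 0.21, 0.03 and -0.0042 on the control arrays, against -0.05, -0.22 and 0.02 on the knockdown arrays. These groups overlapped, and the SD within each (0.11 and 0.12) was the largest of the 9 members. The difference was -0.16 ± 0.08 (SE, 95% confidence interval -0.34 to 0.02, limma's adjusted p = 0.15), and it was -0.09 without control replicate 1 or without knockdown replicate 2. Of its 3 probe sets, 11717168_a_at fell by 0.28 (adjusted p from limma 0.0254), and the other 2 gave -0.09 and -0.11. The fall of that probe set no longer passed without control replicate 1, without control replicate 2 or without knockdown replicate 2, with adjusted p values from limma of 0.0569, 0.0809 and 0.0646.

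PER2 is a period gene that is also induced acutely by growth and stress signals. For PER2 the control values were -0.05, -0.05 and -0.02, and the knockdown values -0.0095, 0.10 and -0.04. The groups overlapped, and 1 array, knockdown replicate 2, stood above the rest. The difference of the gene mean was 0.06 ± 0.05 (SE, 95% confidence interval -0.05 to 0.16, limma's adjusted p = 0.379). The 5 probe sets did not give 1 answer. Probe set 11758315_s_at gave -0.16, -0.23 and -0.15 for control and 0.23, 0.18 and 0.15 for knockdown, a rise of 0.37 ± 0.05 (SE, limma's adjusted p = 0.000562), and the other 4 lay between -0.04 and -0.01, with no adjusted p under 0.784. Its suffix marks probes shared by several transcripts, which may belong to different genes. The rise was kept without each array in turn, and with spike-in scaling it became -0.07.

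PER3, the third period gene, read -0.12, -0.05 and -0.06 on the control arrays, against -0.02, 0.05 and 0.04 on the knockdown arrays. The groups did not overlap, but the gap between them was small. The difference was 0.10 ± 0.04 (SE, 95% confidence interval 0.01 to 0.19) and did not pass (limma's adjusted p = 0.0796). Probe sets 11745947_a_at and 11751159_a_at rose by 0.16 and 0.14 (adjusted p from limma 0.0361 and 0.026), while 11719045_a_at gave -0.0038 with an SE of 0.12. Taking the median over the 3 probe sets in place of their mean brought the gene past the threshold, at 0.14 (limma's adjusted p = 0.0101). The call of 11751159_a_at was lost without each of the 6 arrays in turn. That of 11745947_a_at was lost without control replicates 2 or 3 and without knockdown replicates 1 or 3. Spike-in scaling put PER2 at -0.38 and PER3 at -0.33.

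The responses of the period genes were also set against each other. PER1 minus PER2 changed by -0.22 ± 0.14 (SE) and PER1 minus PER3 by -0.26 ± 0.12, with exact permutation p values of 0.2 and 0.1 (0.25 and 0.167 after adjustment over the 5 pairs). PER2 minus PER3 changed by -0.04 ± 0.05 (SE, exact permutation p = 0.5 before and after adjustment). The values of PER1 minus PER3 did not overlap between the groups (0.33, 0.07 and 0.06 for control, -0.03, -0.27 and -0.01 for knockdown). Leaving out 1 array changed these sizes: PER1 minus PER2 was -0.11 without knockdown replicate 2, PER1 minus PER3 was -0.17 without control replicate 1, and PER2 minus PER3 was -0.0034 without knockdown replicate 3. The tests cannot go below 0.1 and do not show that the genes respond alike.

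**Figure D3:**
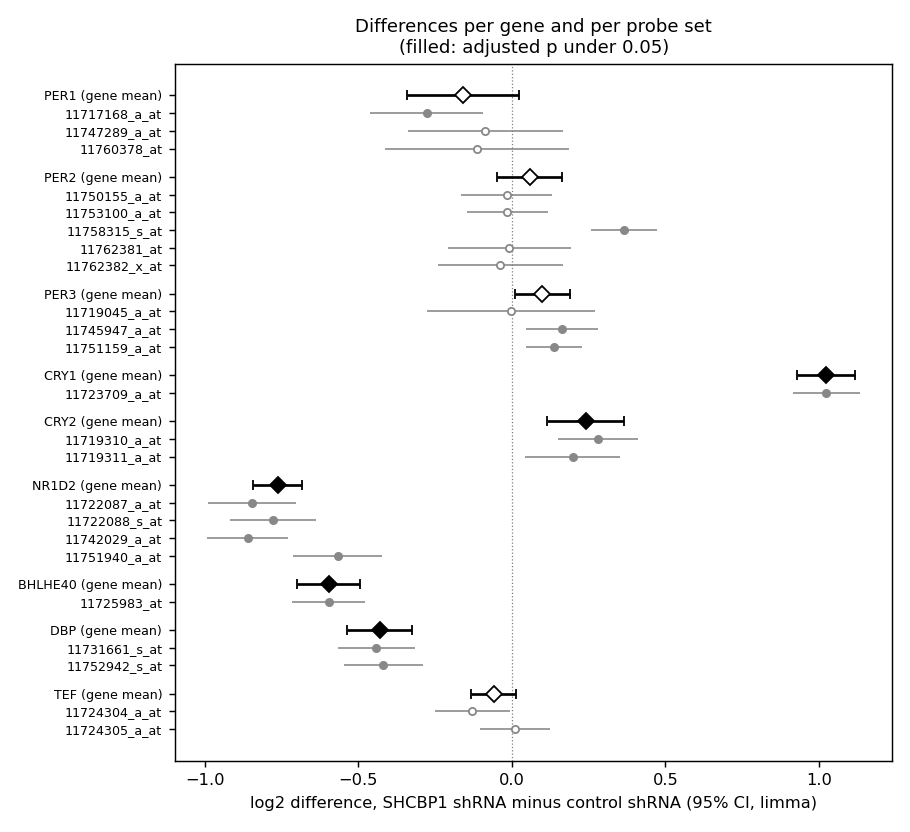
Log2 differences (SHCBP1 shRNA minus control shRNA) of the 9 clock genes (diamonds) and their 23 probe sets (circles) with 95% confidence intervals from limma; filled symbols passed an adjusted p under 0.05. All probe sets of NR1D2 and DBP lie on the same side of 0, and 1 of the 5 PER2 probe sets stands apart at 0.37.

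NR1D2 encodes REV-ERB beta, a heme-binding nuclear receptor that represses BMAL1 and other genes with ROR elements. The control arrays gave 0.38, 0.36 and 0.38, and the knockdown arrays -0.43, -0.36 and -0.38. The groups were far apart, and the control SD of 0.01 was among the smallest of the members. It fell 1.70-fold (log2 difference -0.76 ± 0.03, SE, 95% confidence interval -0.84 to -0.68, limma's adjusted p = 3.06e-06), the largest fall of the 9 members. All 4 of its probe sets fell, by 0.57 to 0.86 on the log2 scale, each past the threshold. Among them 11722088_s_at (-0.78) carries the suffix _s_at, and a contribution of other transcripts to it was not tested. The second promoter window of NR1D2 holds the 2 E-boxes printed above, and its first window holds no match. A link between these letters and the fall was not tested.

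BHLHE40 encodes DEC1, a basic helix-loop-helix repressor that competes with CLOCK and BMAL1 for E-boxes and also responds to hypoxia and growth signals. The control values were 0.24, 0.31 and 0.30 and the knockdown values -0.32, -0.24 and -0.38. Again every control array exceeded every knockdown array. It fell 1.51-fold (log2 difference -0.60 ± 0.04, SE, 95% confidence interval -0.70 to -0.49, limma's adjusted p = 3.09e-05), on its 1 probe set, 11725983_at.

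DBP, an activator of D-box genes and a direct output of the E-box loop, read 0.22, 0.19 and 0.16 on the control arrays, against -0.16, -0.28 and -0.29 on the knockdown arrays. The groups did not overlap, and knockdown replicate 1 stood nearest to the controls. The fall was 1.35-fold (log2 difference -0.43 ± 0.05, SE, 95% confidence interval -0.54 to -0.32, limma's adjusted p = 0.000182). Both probe sets fell, by 0.44 and 0.42. Both carry the suffix _s_at, so a contribution of other transcripts was not tested.

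TEF, the second PAR bZIP factor, read 0.05, 0.03 and 0.04 on the control arrays, against -0.04, -0.02 and -0.0013 on the knockdown arrays. The groups did not overlap, yet the difference was only -0.06 ± 0.03 (SE, 95% confidence interval -0.13 to 0.01) and did not pass (limma's adjusted p = 0.178). Its probe sets gave -0.13 (11724304_a_at) and 0.01, and the former passed without control replicate 2 (-0.17, limma's adjusted p = 0.0375). DBP minus TEF changed by -0.37 ± 0.05 (SE), with an exact permutation p of 0.1 (0.167 after adjustment over the 5 pairs). In all, 7 of the 9 members had groups that did not overlap, where 50.0% of all genes did, and 14 of the 23 member probe sets passed limma's test on their own, where 38.5% of all probe sets with a single symbol did.

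Gene patterns over 6 arrays are dominated by the contrast between the groups, and 611 genes correlated with CRY1 and 868 with NR1D2 at a Pearson r over 0.99. The 3 genes most like CRY1 were CAPZA1, PFDN5 and GCHFR (r of 0.999 each), with rises of 0.28, 0.34 and 0.56. The 3 most like NR1D2 were ITGB5, MOCOS and CEBPA, with differences of -1.59, -1.38 and -1.0. The correlation sets aside the size of a change, and its 6 points share only these arrays.

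Of the genes that act on or with these members, the activators and nuclear receptors of the loop were lower or did not pass. In that list 4 of 6 tested genes fell and 0 rose, with a median difference of -0.58, where 19.0% of all genes fell and 22.0% rose. BMAL1, whose product pairs with CLOCK, had control values of 0.46, 0.40 and 0.47 and knockdown values of -0.49, -0.50 and -0.38. The groups lay far apart, the fall was 1.87-fold (log2 difference -0.90 ± 0.04, SE, limma's adjusted p = 4.76e-06), and its 3 probe sets ran from -1.06 to -0.79. RORA, an activator of BMAL1 that opposes NR1D2 at shared elements, fell by 0.71 ± 0.03 (SE), BMAL2, a paralog of BMAL1, by 0.67 ± 0.04, and NPAS2, a paralog of CLOCK, by 0.48 ± 0.03. CLOCK itself differed by -0.03 ± 0.05 (SE) and did not pass (limma's adjusted p = 0.722).

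**Figure D4:**
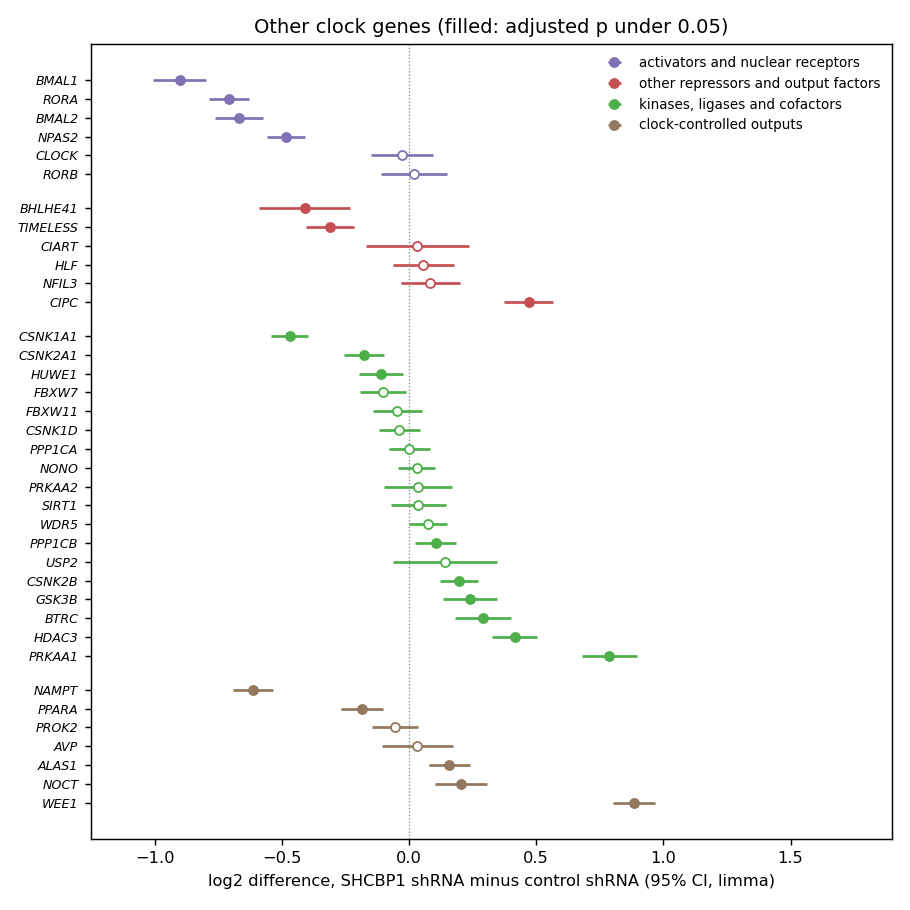
Log2 differences (SHCBP1 shRNA minus control shRNA) with 95% confidence intervals from limma for 37 other clock genes in 4 lists; filled circles passed an adjusted p under 0.05. BMAL1, RORA, BMAL2 and NPAS2 lie below 0, and WEE1 and PRKAA1 have the largest rises.

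The other lists moved both ways, and 22.0% of all genes rose and 19.0% fell. Among other repressors and output factors 1 of 6 rose and 2 fell: CIPC, an inhibitor of CLOCK, rose by 0.47 (0.036 with spike-in scaling, no longer past the threshold, limma's adjusted p = 0.535), while BHLHE41 (DEC2) and TIMELESS fell by 0.41 and 0.31. The probe sets of BHLHE41 ranged from -1.01 to -0.01, and with their median in place of the mean it did not pass (-0.22, limma's adjusted p = 0.145). Of 18 tested kinases, ubiquitin ligases and cofactors that modify clock proteins, 6 rose and 3 fell, or 9 of 18 where 41.0% of all genes passed. PRKAA1, a catalytic subunit of AMPK, which marks cryptochromes for degradation, rose by 0.79, HDAC3, the deacetylase recruited by REV-ERB, by 0.41 and the ligase gene BTRC, whose product acts on PER proteins, by 0.29, and the casein kinase gene CSNK1A1 fell by 0.47. The 11 probe sets of CSNK1A1 ran from -1.03 to -0.13, and plain probe sets alone gave -0.23. CSNK1D, another casein kinase 1 gene of that list, differed by -0.04 and did not pass (limma's adjusted p = 0.444). Its probe sets ran from -0.26 to 0.42, and CSNK1E had no value. The probe sets of PRKAA1 ran from 0.04 to 1.45, and its 1 plain probe set gave 0.04, so that call rests on the other 3. Those of BTRC ran from 6.0e-05 to 0.60, while HDAC3 and CIPC rest on 1 probe set each. With spike-in scaling PRKAA1 stood at 0.35, and BTRC and HDAC3 turned to -0.14 and -0.019.

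Of 7 tested clock-controlled outputs, 3 rose and 2 fell, or 5 of 7. The mitotic kinase gene WEE1, an E-box gene, rose by 0.88 ± 0.04 (SE) on 1 probe set (0.45 with spike-in scaling). NOCT rose by 0.21, which spike-in scaling turned to -0.23. NAMPT, the rate-limiting enzyme gene of NAD salvage, fell by 0.61 with probe sets from -1.06 to -0.07, and PPARA fell by 0.19 with probe sets from -0.89 to 0.11. PPARA did not pass with the median over its probe sets (-0.09, limma's adjusted p = 0.124). Over these 4 lists 21 of 37 tested genes passed, 10 higher and 11 lower, where 41.0% of all genes did, and their median difference was 0.03.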

How the data were processed

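RNA of 6 samples was hybridised to 1 Affymetrix PrimeView array each. The deposited table holds log2 values made by the authors with RMA, per the submitters' processing notes; those notes name neither the RMA software, the log base (taken as 2) nor the centring that leaves each probe set with a median of 0. RMA evens array distributions, which removes a shift of all transcripts, and the centring leaves no signal level, so no filter on dim probe sets was possible and the number of arrays limits the precision.

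Groups and replicate numbers came from the titles. Each gene was the mean of its probe sets annotated with that symbol alone, with no other choice among them. Differences were fitted over all genes, and separately over all single-symbol probe sets, by limma (version 3.58.1, lmFit and eBayes, under R 4.3.3). The fit had no pairing, p-values were adjusted by Benjamini-Hochberg over the whole table with a threshold of 0.05, and standard errors are moderated. The scripts were tested on simulated data. Changes of family members were compared with exact permutation tests of the per-array difference. The pair NR1D1 and NR1D2 could not be compared. Motif letters were searched in RefSeq promoter sequences. The text names all members, SHCBP1 and up to 4 called genes with the largest changes per list. It also names the 3 genes most correlated with the members of largest rise and fall. CLOCK, CSNK1D, FOXE1 and CDX2 were named after their values were seen, as was CSNK1E, which has no value. Members and lists were chosen with earlier results of these data known. Other scalings, array weights, robust moderation, a replicate block, other probe set summaries and leaving out each array were tried as alternatives; for the pairs of family members only quantile normalization, the median over probe sets and leaving out each array were run, chosen after seeing the data.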

Additional observations from a re-analysis of the deposited data

Results flagged for a closer look

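The poly-A spike-in control probe sets, which enter no comparison of genes, were higher in the SHCBP1 shRNA arrays than in the control arrays by 0.43 on the log2 scale (24 probe sets). Their part in the differences of the clock genes was not tested. The scaling given with the results shows only how the values shift.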

How the results depend on the processing

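Under the alternatives, 113 of 120 values of member genes kept their direction and their side of the threshold, and for the 5 called members 65 of 66 did, CRY2 with spike-in scaling being the exception. Spike-in scaling, which shifts all genes of an array alike, gave 16709 genes past the threshold (441 higher and 16268 lower, against 3992 and 3448), 1 member higher and 8 lower, a member median of -0.49, and 2 wider clock genes higher and 33 lower. It reversed CRY2 (-0.19; probe sets -0.15 and -0.24), PER2 (-0.38; 11758315_s_at -0.069), PER3 (-0.33; 11745947_a_at -0.27 and 11751159_a_at -0.30), TEF probe set 11724305_a_at (-0.42), BTRC (-0.14), HDAC3 (-0.019) and NOCT (-0.23). Plain _at probe sets left 8324 genes, with 1882 past the threshold; 3 members remained measured, with 0 higher, 1 lower (BHLHE40), a median of -0.11 and PER2 at -0.0085, and 3 wider clock genes were higher and 3 lower. Near 0, TEF 11724305_a_at reversed with quantile normalization (-0.0037) and centred arrays (-0.00038), and PER3 11719045_a_at with array weights (0.027).

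Without each array in turn the counts of members stayed at 2 higher and 3 lower, and all genes past the threshold ran from 6655 to 6840. Directions of uncalled probe sets turned within these ranges: PER3 11719045_a_at -0.12 to 0.089, TEF 11724305_a_at -0.024 to 0.047, PER1 11747289_a_at -0.19 to 0.021, and PER2 11750155_a_at -0.061 to 0.049, 11753100_a_at -0.057 to 0.020, 11762381_at -0.081 to 0.066 and 11762382_x_at -0.14 to 0.029. The titles do not say that the numbers pair the samples, so no pairing was used. Deviations of same-numbered arrays had correlations of 0.02, -0.05 and 0.07, and 3 of 6 arrays correlated best with their own number. With 3 arrays per group this check cannot exclude a pairing. With the replicate block 7092 genes passed and the members stayed at 2 higher and 3 lower, but probe sets 11717168_a_at of PER1 and 11751159_a_at of PER3 no longer passed (limma's adjusted p of 0.0648 and 0.0634). The cause of these changes was not tested. Spike-in scaling and the smaller table of plain probe sets show only how the values move with the processing.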
